A study of Drosophila melanogaster with 12 samples.

Results

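The response of wild-type (WT) fly heads to temperature was described from 6 libraries, 3 from flies grown at 18°C and 3 from flies grown at 29°C, out of the 12 libraries of the series. They were chosen by genotype and temperature labels alone. The other 6 came from an Adar hypomorph at the same temperatures. The study describes it as carrying a transposon insertion in an intron of Adar, the adenosine deaminase that edits RNA. The methods of the study name the strain Adar5G1, whereas its discussion sets ADAR5G1 apart from the hypomorph. Those 6 libraries served here for the common estimate of spread and for a test of where the response of WT differs. The WT flies were *Drosophila melanogaster* of a strain the labels give only as wt, grown at the stated temperature and harvested 3 to 6 days after eclosion at both temperatures, and no agent is named for any group. Grown is the word of the labels, whereas the study writes that the flies were entrained at 18°C and 29°C. Whether development also took place at those temperatures is not settled by these words. Neither the sex of the flies, the number pooled nor the hour of harvest is given in the labels or in the methods of the study. RNA was taken from whole heads, which hold brain, eyes, antennae, fat body, muscle and cuticle, and the 3′ ends of polyadenylated RNA were counted. In such bulk samples fewer cells of a type and less RNA per cell cannot be told apart. Nothing says that the libraries of a group came from separate cultures, so the p-values measure the spread between these libraries, which may be technical.

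Flies do not regulate their body temperature. Within the range they tolerate, warmth speeds development, metabolism and ageing, while cold slows them. Heat shock factor and the chaperones it induces guard proteins against heat, the circadian clock keeps its period across temperatures, and ion channels of the TRP family and ionotropic receptors sense warmth and cold. The question of the comparison was which genes of the head stand higher at either temperature in flies with normal Adar.

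The WT libraries held 4679393 to 8725136 counts, and 10957 to 11512 genes had at least 1 count in 5 of them. In replicate 2 at 29°C 12905 genes had a count. That library held 159 genes with at least 10 counts there and at most 1 in each of the other 5, whereas the same search gave 0 or 1 gene for each of the others. Counts of calls that moved by over 1.5 times without it are given both ways. Markers of a head were present in every library. Photoreceptor ninaE, the main opsin, measured 2039, 1689 and 1867 CPM at 18°C and 2839.8, 2126 and 2481 CPM at 29°C, where CPM are counts scaled to the TMM-adjusted size of each library and the values are in the order unnumbered replicate, replicate 2 and replicate 3, as in all that follows. The neuronal gene nSyb measured 175, 172 and 171 CPM at 18°C and 186, 211 and 228 CPM at 29°C, and the glial gene Gs2 927, 847 and 955 CPM at 18°C and 747, 724 and 765 CPM at 29°C. Adar itself did not pass the test between temperatures, at 40.2, 40.9 and 35.2 CPM at 18°C and 37.3, 39.5 and 42.3 CPM at 29°C (log2 fold change -0.04 ± 0.14 (SE), adjusted p = 0.86).

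At an adjusted p under 0.05 in the quasi-likelihood fit of edgeR (called below), 3190 of the 9553 genes tested (33.4%) differed between the temperatures. Of these, 1651 (17.3% of those tested) were higher at 18°C and 1539 (16.1%) at 29°C. The calls in each gene list below are to be read against these shares. Fold changes are given as log2 of 18°C over 29°C, so that positive values are higher at 18°C. Most differences were small. The median size of a called change was 0.56, and 626 of the calls, 360 at 18°C and 266 at 29°C, went beyond a log2 fold change of 1. The criterion of the study was a log2 fold change beyond 1 with a p under 0.05, and the study does not say whether p was adjusted. With p unadjusted, as that criterion is taken here, 700 genes passed (7.33%), 387 at 18°C (4.05%) and 313 at 29°C (3.28%). The 3 libraries of each temperature did not overlap for 4294 of the tested genes (44.9%) and for 3068 of those called. The median log2 fold change over all tested genes was -0.01, as TMM scaling centres most genes near 0, so that changes are relative to the bulk of genes. Without replicate 2 at 29°C, 2668 of 9675 genes were called (27.6%), 1422 at 18°C (14.7%) and 1246 at 29°C (12.9%). 1359 of the calls at 18°C and 1188 of those at 29°C remained. By the criterion of the study, 90.4% of the genes higher at 18°C and 74.8% of those higher at 29°C passed again.

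**Figure D1:**
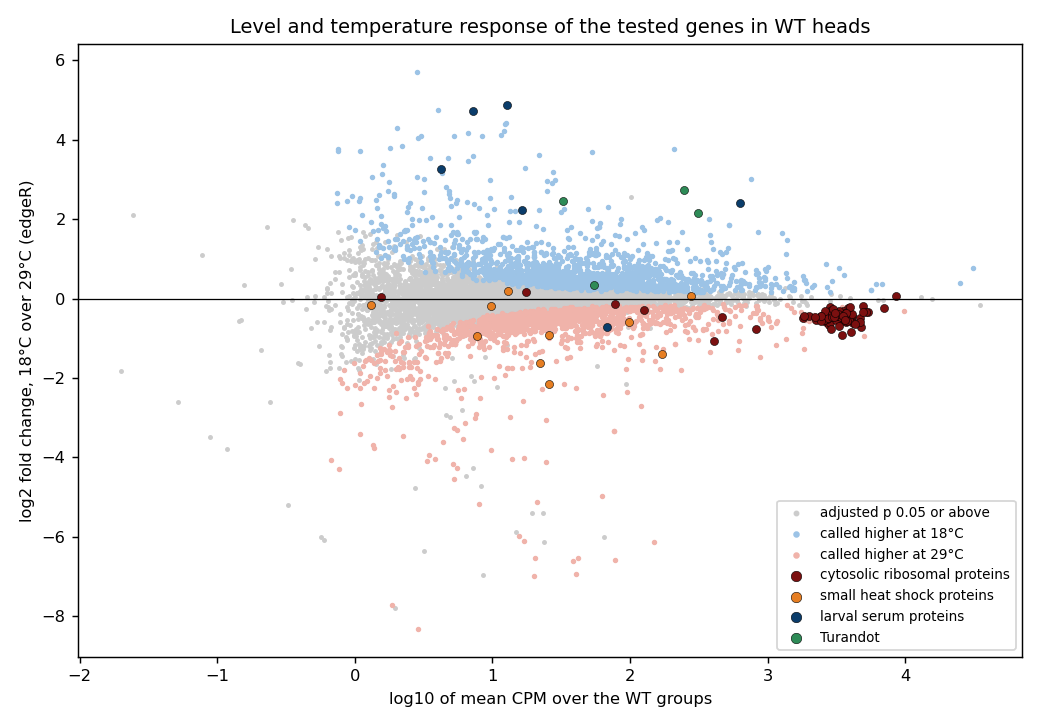
Log2 fold change (18°C over 29°C, edgeR) of each tested gene in WT heads against log10 of its mean CPM over the WT groups, with called genes in pale blue (18°C) or pale red (29°C). The 3 tested genes at 0 in every WT library are not drawn. The 82 called ribosomal protein genes, in dark red with the other 4, lie below 0, while the Turandot genes and all larval serum protein genes but Lsp1beta lie above 0.

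Cytosolic ribosomal proteins, the structural parts of the ribosome that translates nuclear messages, stood higher at 29°C almost as a whole. Of 93 such genes with a row of counts, 86 were tested, and 82 were called higher at 29°C, against 16.1% of all genes. Their median log2 fold change was -0.44. Together they took 22.6% to 23.0% of all counts in the libraries at 18°C and 29.2% to 30.2% in those at 29°C. RpLP0, a stalk protein, measured 2179, 2122 and 2173 CPM at 18°C and 3463, 3726 and 3765 CPM at 29°C (log2 fold change -0.76 ± 0.06 (SE), adjusted p = 8.6e-08). RpS20 measured 2843, 2975 and 2856 CPM at 18°C and 4996, 5334 and 5114 CPM at 29°C (log2 fold change -0.83 ± 0.06 (SE), adjusted p = 7.8e-08). For both genes every library at 29°C lay well above every library at 18°C, with a spread within groups far smaller than the gap. The protein of the small subunit sta gave -0.92 ± 0.07, adjusted p = 9.6e-08, and RpL24-like, a relative that acts in ribosome assembly, gave -1.07 ± 0.06, adjusted p = 4.1e-09. The 4 members that did not pass were RpL41 (0.05), RpL7-like (-0.15), RpLP0-like (0.16) and RpS5b (0.04). 80 members were called without replicate 2 at 29°C.

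Factors that bring messages and transfer RNA to the ribosome moved in both directions. Of 47 translation factors tested, 21 were called at the higher level in 29°C heads (44.7%) and 5 in 18°C heads (10.6%), with a median of -0.20. The shares of all genes were 16.1% and 17.3%. Subunits of initiation factor 3, the complex that readies the small subunit for a message, were among the firmest. Tango7, its subunit m, measured 185, 169.8 and 181 CPM at 18°C and 344, 383 and 354 CPM at 29°C (log2 fold change -1.01 ± 0.06 (SE), adjusted p = 1.6e-08), and eIF-3p40, subunit h, gave -1.05 ± 0.07, adjusted p = 2.1e-08. CG5642, subunit l, gave -0.79 ± 0.06, adjusted p = 5.7e-08, and CG7414, the initiation factor eIF2A, gave -0.77 ± 0.06, adjusted p = 3.3e-07. In the opposite direction, eIF-3p66, subunit d, gave 0.37 ± 0.08, adjusted p = 0.0018, and eEF1delta, part of the exchange factor that reloads elongation factor 1, measured 268.5, 305 and 272 CPM at 18°C and 176, 176 and 180.0 CPM at 29°C (log2 fold change 0.67 ± 0.08 (SE), adjusted p = 8.8e-06). Subunits of the same complex thus stood on both sides. Of 75 mitochondrial ribosomal proteins, 22 were called higher at 29°C (29.3%) and 4 at 18°C (5.33%), against the same shares of all genes. First among the former were mRpL53 (-0.64 ± 0.07, adjusted p = 2.8e-06) and mRpL49 (-0.71 ± 0.09, adjusted p = 1.6e-05). Of 34 genes of ribosome assembly, 4 were called in each direction (11.8%), below the 17.3% at 18°C and 16.1% at 29°C of all genes. Non1, a nucleolar GTPase, measured 359, 363 and 338 CPM at 18°C and 783, 950.0 and 877 CPM at 29°C and led those higher at 29°C (log2 fold change -1.30 ± 0.07 (SE), adjusted p = 7.2e-09), while the helicase pit gave 0.83 ± 0.18, adjusted p = 0.002.

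Chaperones of the heat shock families stood higher at 29°C. Small heat shock proteins bind unfolding proteins without using ATP. Of the 10 tested, 6 were called higher at 29°C (60%, against 16.1% of all genes), with a median of -0.76. Hsp22, of mitochondria, measured 40.5, 44.2 and 42.0 CPM at 29°C and 9.65, 9.68 and 9.32 CPM at 18°C, 4.42-fold higher at 29°C (log2 fold change -2.15 ± 0.13 (SE), adjusted p = 1.6e-08). The members l(2)efl, with 241, 276 and 233 CPM at 29°C and 95.4, 92.8 and 94.6 CPM at 18°C (log2 fold change -1.41 ± 0.09 (SE), adjusted p = 1.2e-08), and Hsp26, with 29.6, 38.3 and 31.8 CPM at 29°C and 12.3, 10.4 and 9.76 CPM at 18°C (log2 fold change -1.63 ± 0.16 (SE), adjusted p = 1.9e-06), followed. In all 3 the groups were far apart. CG14207, with 272, 286 and 286 CPM at 18°C and 263, 282 and 269.1 CPM at 29°C, did not pass (log2 fold change 0.05 ± 0.06 (SE), adjusted p = 0.54). Of 23 members of the Hsp70 and Hsp90 families and their partners, 16 were called higher at 29°C (69.6%, median -0.51), and 14 without replicate 2 at 29°C. Hsp60, the chaperonin of mitochondria, gave -0.51 ± 0.05, adjusted p = 2.3e-06, and CG11267, its partner Hsp10, measured 341, 343 and 319 CPM at 29°C and 180.3, 191 and 188 CPM at 18°C (log2 fold change -0.84 ± 0.06 (SE), adjusted p = 1.5e-07). Hsp70Aa measured 19.4, 20.6 and 20.1 CPM at 29°C and 6.36, 5.11 and 6.41 CPM at 18°C (log2 fold change -1.74 ± 0.18 (SE), adjusted p = 3.4e-06), and Hsp70Ab gave nearly the same value (-1.74 ± 0.17, adjusted p = 1.7e-06). These copies are almost identical, so their reads cannot be assigned to either with confidence. In the endoplasmic reticulum, where secreted proteins fold, the members went both ways. Of 27 tested, 9 were called higher at 18°C (33.3%) and 4 at 29°C (14.8%), against 17.3% and 16.1% of all genes. The disulfide isomerase prtp (0.72 ± 0.08, adjusted p = 7.2e-06) and the translocon subunits Sec63 (0.60 ± 0.08, adjusted p = 5.5e-05) and Sec61gamma (0.53 ± 0.08, adjusted p = 0.00015) were higher at 18°C, whereas the isomerase CaBP1 (-0.61 ± 0.10, adjusted p = 0.00023), the chaperone Calr (-0.34 ± 0.07, adjusted p = 0.0016) and crc, the fly's ATF4 stress factor (-0.39 ± 0.05, adjusted p = 1.1e-05), were higher at 29°C.

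**Figure D2:**
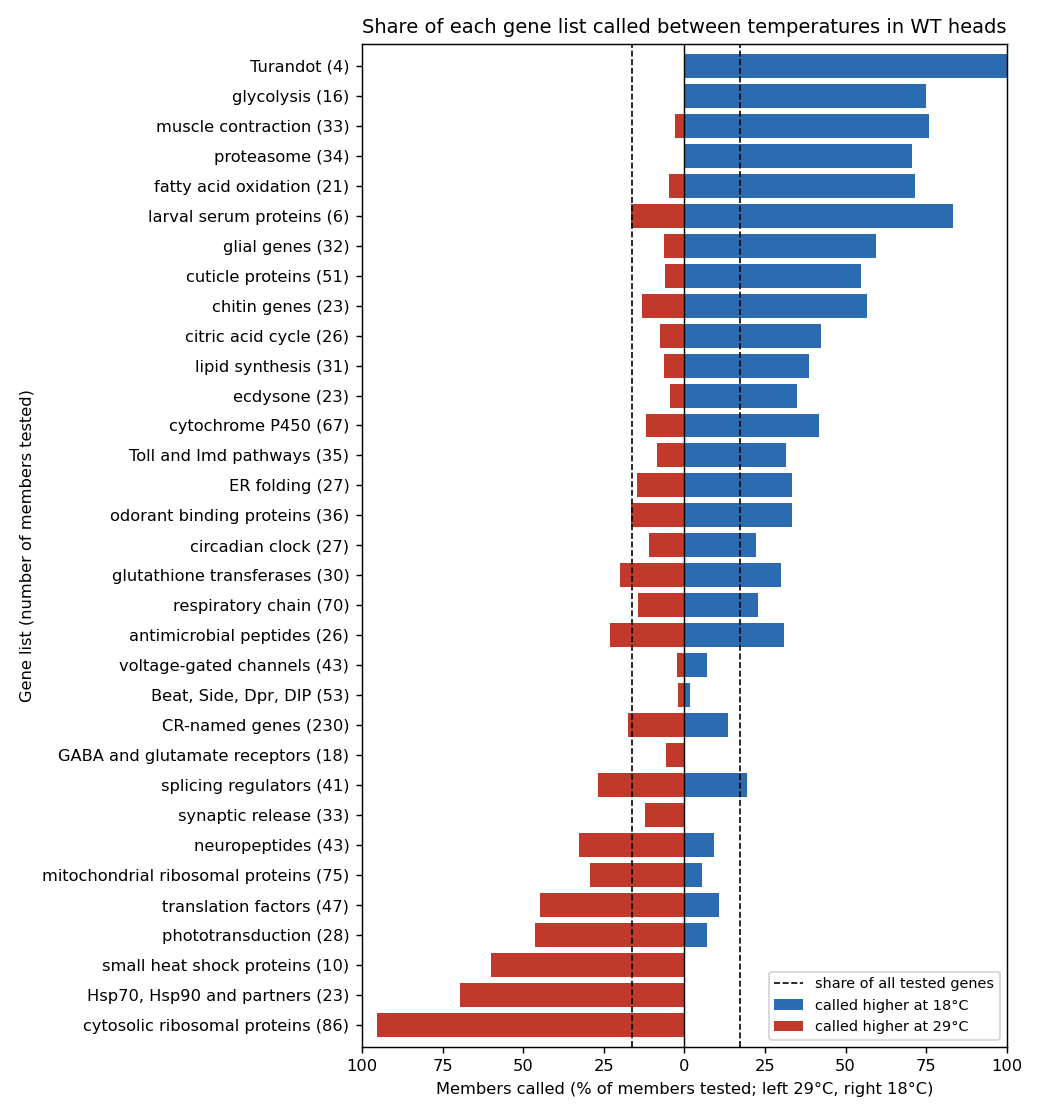
Percent of the tested members of 33 gene lists called higher at 18°C (right, blue) or at 29°C (left, red) in WT heads, with dashed lines at the shares of all tested genes, 17.3% and 16.1%. Cytosolic ribosomal proteins and heat shock proteins reach furthest to the left, and Turandot, larval serum protein, muscle and glycolysis genes furthest to the right.

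In the eye, light is caught by an opsin and passed through a G protein and phospholipase C to the TRP channels, and arrestin ends the response. Of 28 genes of this cascade 13 were called higher at 29°C, against 16.1% of all genes, and 2, laza and Inx2, higher at 18°C, with a median of -0.14. trp, the main light-gated channel, measured 774, 891 and 875 CPM at 29°C and 421, 409 and 372 CPM at 18°C (log2 fold change -1.08 ± 0.07 (SE), adjusted p = 2.1e-08). Arr2, the major arrestin, measured 5715, 7244 and 6800.3 CPM at 29°C and 3585, 3518 and 3123 CPM at 18°C (log2 fold change -0.95 ± 0.08 (SE), adjusted p = 2.4e-07), and all libraries at 29°C exceeded all at 18°C for both genes. trpl, the second channel, gave -0.79 ± 0.08, adjusted p = 4e-06, Galphaq, the G protein subunit, -0.70 ± 0.07, adjusted p = 1.5e-06, and norpA, the phospholipase C, -0.57 ± 0.07, adjusted p = 1.6e-05. laza, a lipid phosphatase of the cascade, measured 72.6, 85.5 and 77.3 CPM at 18°C and 35.1, 35.7 and 31.4 CPM at 29°C (log2 fold change 1.21 ± 0.08 (SE), adjusted p = 5.6e-08). The gap junction protein Inx2 (0.24 ± 0.06, adjusted p = 0.01) missed the threshold without replicate 2 at 29°C (adjusted p = 0.062). The summed level of the list was 13069 to 15666 CPM at 29°C and 9359 to 10550.2 CPM at 18°C.

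The opsins themselves moved little and not together. ninaE, of the outer photoreceptors, was higher at 29°C (-0.41 ± 0.09, adjusted p = 0.0021), and Rh5, the blue opsin of inner photoreceptors, was higher at 18°C at 53.8, 54.0 and 51.7 CPM at 18°C and 36.9, 37.7 and 41.8 CPM at 29°C (log2 fold change 0.45 ± 0.08 (SE), adjusted p = 0.00051). Rh4 (0.24 ± 0.06, adjusted p = 0.0097) was higher at 18°C and Rh6 (-0.26 ± 0.08, adjusted p = 0.015) at 29°C, and Rh6 missed the threshold without replicate 3 at 18°C (adjusted p = 0.08) or at 29°C (adjusted p = 0.059). Rh3 (-0.16 ± 0.07, adjusted p = 0.09), Rh2 (-0.11 ± 0.07, adjusted p = 0.23) and Rh7 (-0.19 ± 0.20, adjusted p = 0.5) did not pass. Of 13 genes for the chromophore and for opsin maturation, 5 were called higher at 18°C and 3 at 29°C. These were 38.5% and 23.1%, against 17.3% and 16.1% of all genes. rdhB, which makes the visual chromophore from its precursor, measured 125, 135 and 124 CPM at 18°C and 72.6, 70.0 and 66.6 CPM at 29°C (log2 fold change 0.88 ± 0.07 (SE), adjusted p = 1e-07), and santa-maria, a scavenger receptor for carotenoids, gave 0.46 ± 0.07, adjusted p = 0.00011. Xport, which carries TRP and rhodopsin to the membrane, was higher at 29°C (-0.84 ± 0.10, adjusted p = 7.2e-06), as was trp itself. Among 23 eye pigment genes, the pteridine enzymes Pu (0.97 ± 0.12, adjusted p = 2e-05) and se (0.62 ± 0.11, adjusted p = 0.00056) and KFase, of the kynurenine path (0.83 ± 0.08, adjusted p = 1.4e-06), were higher at 18°C. v, the enzyme that opens that path, measured 144, 165 and 169 CPM at 29°C and 86.4, 88.9 and 81.5 CPM at 18°C and was higher at 29°C (log2 fold change -0.90 ± 0.08 (SE), adjusted p = 5e-07). Enzymes of the same pathway, v and KFase, stood on opposite sides.

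In several lists of synapses and excitability few genes passed the test. Of 33 genes of synaptic vesicle release, 4 were called, each higher at 29°C, with Snap25 (-0.35 ± 0.07, adjusted p = 0.00075) and nSyb (-0.27 ± 0.07, adjusted p = 0.006) foremost. The vesicle calcium sensor Syt1 measured 118, 116 and 119 CPM at 18°C and 115, 119 and 121 CPM at 29°C (log2 fold change -0.01 ± 0.08 (SE), adjusted p = 0.96). Of 43 voltage-gated and related channels 4 were called, of 53 recognition proteins of the Beat, Side, Dpr and DIP families 2, dpr5 (0.84 ± 0.24, adjusted p = 0.012) and dpr21 (-0.66 ± 0.09, adjusted p = 3.1e-05), and of 18 receptors for GABA and glutamate 1, the muscle glutamate receptor subunit GluRIIC (-1.51 ± 0.37, adjusted p = 0.005). dpr5 missed the threshold without the unnumbered library at 18°C (adjusted p = 0.064). These shares lie below the 33.4% of all tested genes. The chloride channel ClC-a, at 63.4, 61.4 and 58.2 CPM at 18°C and 42.7, 37.6 and 42.9 CPM at 29°C, led the channels (log2 fold change 0.57 ± 0.10 (SE), adjusted p = 0.00035). The nicotinic receptor subunits differed from these lists, with 5 of 10 called (20% higher at 18°C and 30% at 29°C), and 3 without replicate 2 at 29°C. Among them nAChRbeta2 was higher at 18°C (0.67 ± 0.11, adjusted p = 0.00034) and nAChRalpha6 at 29°C (-0.49 ± 0.13, adjusted p = 0.0084).

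Neuropeptide genes and their processing enzymes were called higher at 29°C for 14 of 43 members and higher at 18°C for 4. These were 32.6% and 9.30%, against 16.1% and 17.3% of all genes. CNMa measured 11.6, 8.1 and 8.67 CPM at 29°C and 1.32, 2.74 and 1.6 CPM at 18°C, 4.94-fold higher at 29°C (log2 fold change -2.30 ± 0.32 (SE), adjusted p = 5.3e-05). Dsk, a cholecystokinin-like satiety peptide, measured 178, 182 and 185 CPM at 29°C and 142, 126 and 128 CPM at 18°C (log2 fold change -0.46 ± 0.06 (SE), adjusted p = 4.3e-05), and Capa gave -0.50 ± 0.10, adjusted p = 0.0013. Higher at 18°C were CCHa2, a peptide of fat body and gut (0.45 ± 0.07, adjusted p = 0.00011), and Nplp3 (0.58 ± 0.09, adjusted p = 0.00012). The amidating enzymes, which finish many peptides, split, with Pal1 higher at 18°C, at 86.2, 87.1 and 86.3 CPM at 18°C and 56.0, 46.3 and 52.1 CPM at 29°C (log2 fold change 0.75 ± 0.08 (SE), adjusted p = 4.4e-06), and Pal2 higher at 29°C (-0.40 ± 0.08, adjusted p = 0.00083). Of 28 genes of transmitter synthesis and transport, 8 were called higher at 18°C (28.6%) and 3 at 29°C (10.7%), against 17.3% and 16.1% of all genes. Those at 18°C included b, which makes beta-alanine (0.96 ± 0.08, adjusted p = 3.2e-07), and Ddc, of dopamine and serotonin synthesis (0.77 ± 0.12, adjusted p = 0.00011), both of which also serve the colour of cuticle. VGlut, the vesicular glutamate transporter, measured 103.8, 107 and 110.3 CPM at 29°C and 71.7, 78.0 and 73.8 CPM at 18°C and was higher at 29°C (log2 fold change -0.52 ± 0.08 (SE), adjusted p = 0.00011), with Trh, which starts serotonin synthesis (-1.07 ± 0.26, adjusted p = 0.0046), and Ace, which degrades acetylcholine (-0.37 ± 0.08, adjusted p = 0.0019).

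Glial genes were called higher at 18°C for 19 of 32 members, against 17.3% of all genes, and higher at 29°C for 2, or 1 without replicate 2 at 29°C, with a median of 0.30. Gat, the GABA transporter of astrocyte-like glia, measured 99.6, 94.8 and 91.0 CPM at 18°C and 44.0, 40.4 and 52.5 CPM at 29°C (log2 fold change 1.06 ± 0.09 (SE), adjusted p = 2.9e-07). Eaat1, their glutamate transporter, measured 224, 249 and 244 CPM at 18°C and 147, 147 and 153 CPM at 29°C (log2 fold change 0.68 ± 0.06 (SE), adjusted p = 1.1e-06), and the groups did not overlap for either gene. bdl, a glial adhesion protein of the eye and brain (0.64 ± 0.07, adjusted p = 8.8e-06), CG6126 (0.96 ± 0.07, adjusted p = 1.5e-07) and Gs2, glutamine synthetase (0.29 ± 0.07, adjusted p = 0.0033), were also higher at 18°C. repo, the transcription factor that defines glia, was just past the threshold (0.37 ± 0.14, adjusted p = 0.049) and missed it in 5 of the 6 fits without a WT library, up to an adjusted p of 0.22 without the unnumbered library at 18°C. The neuronal RNA-binding protein elav measured 47.6, 45.8 and 49.2 CPM at 29°C and 30.3, 30.3 and 38.01 CPM at 18°C and was higher at 29°C (log2 fold change -0.53 ± 0.10 (SE), adjusted p = 0.001). Other neuronal genes did not all follow elav. nSyb was also higher at 29°C, but Syt1 did not pass, and the list of synaptic vesicle release had a median of -0.08. Whether shares of glia and neurons in the heads differed was not tested.

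Regulators of splicing split, with 8 of 41 called higher at 18°C (19.5%) and 11 at 29°C (26.8%), against 17.3% and 16.1% of all genes. Hrb87F, an hnRNP protein, measured 68.7, 70.3 and 71.1 CPM at 18°C and 40.5, 35.0 and 37.0 CPM at 29°C (log2 fold change 0.90 ± 0.08 (SE), adjusted p = 7.1e-07), and Rsf1, a repressor of SR proteins, gave 0.31 ± 0.07, adjusted p = 0.0026. The neuronal protein Rbp9, a relative of elav, measured 171, 189 and 187 CPM at 29°C and 123, 126 and 117 CPM at 18°C (log2 fold change -0.58 ± 0.06 (SE), adjusted p = 3.4e-06). Hrb98DE, a close relative of Hrb87F, went the other way from it (-0.39 ± 0.06, adjusted p = 0.00028). Of 18 genes of double-stranded and small RNA pathways, which include Adar, 2 were called higher at 18°C and 5 at 29°C. These were 11.1% and 27.8%, against 17.3% and 16.1% of all genes. Higher at 18°C were Tudor-SN, a nuclease of the silencing complex (0.70 ± 0.08, adjusted p = 5e-06), and AGO2, its slicer (0.34 ± 0.08, adjusted p = 0.0052). Those at 29°C included loqs, a partner of Dicer, at 61.0, 70.8 and 71.0 CPM at 29°C and 55.7, 44.9 and 38.9 CPM at 18°C (log2 fold change -0.55 ± 0.11 (SE), adjusted p = 0.0014).

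Many genes of sugar and fat use stood higher at 18°C. Of 16 tested genes of glycolysis and the glycerol phosphate shuttle, 12 were called higher at 18°C (75%, against 17.3% of all genes). Their median was 0.31, and the same number was called without replicate 2 at 29°C. The other 4, Pgi (0.09), Ald (0.06), Pglym78 (0.09) and CG43343 (-0.06), did not pass. Gpdh, glycerol-3-phosphate dehydrogenase of the shuttle, measured 779.5, 826 and 754 CPM at 18°C and 458, 407 and 434 CPM at 29°C (log2 fold change 0.86 ± 0.06 (SE), adjusted p = 5.6e-08). Pgk measured 519.5, 526 and 501 CPM at 18°C and 345, 342 and 331 CPM at 29°C (log2 fold change 0.60 ± 0.05 (SE), adjusted p = 8.4e-07), and Gapdh1 gave 0.46 ± 0.05, adjusted p = 8.3e-06 and Hex-C, a hexokinase, 0.62 ± 0.07, adjusted p = 7.7e-06. The libraries of a group lay close together and the groups apart. Of 21 genes of fatty acid oxidation, 15 were called higher at 18°C (71.4%) and 1, wal, at 29°C (4.76%), with a median of 0.41. The shares of all genes were 17.3% and 16.1%. wal missed the threshold without replicate 2 at 29°C (adjusted p = 0.06). yip2, a thiolase, measured 278, 276 and 301 CPM at 18°C and 141, 157 and 162 CPM at 29°C (log2 fold change 0.89 ± 0.07 (SE), adjusted p = 2.1e-07), and Mtpalpha, of the mitochondrial trifunctional enzyme, gave 0.55 ± 0.06, adjusted p = 6.7e-06. CG5009, an acyl-CoA oxidase of peroxisomes, gave 0.81 ± 0.09, adjusted p = 4.3e-06.

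In the citric acid cycle and the reactions that feed it, 11 of 26 genes were called higher at 18°C and 2 at 29°C. These were 42.3% and 7.69%, against 17.3% and 16.1% of all genes. Men, the cytosolic malic enzyme that makes NADPH, had one of the firmest changes of all genes, at 367, 369 and 364 CPM at 18°C and 157, 154 and 152 CPM at 29°C (log2 fold change 1.25 ± 0.06 (SE), adjusted p = 8.3e-10). Mdh1, the cytosolic malate dehydrogenase, was higher at 18°C (0.52 ± 0.06, adjusted p = 7.3e-06), whereas Mdh2, its mitochondrial counterpart, was higher at 29°C at 952, 968 and 909 CPM at 29°C and 792, 771 and 754 CPM at 18°C (log2 fold change -0.29 ± 0.05 (SE), adjusted p = 0.00062). Pdk, which shuts off pyruvate dehydrogenase, was also higher at 29°C (-0.49 ± 0.09, adjusted p = 0.00084). Of 31 genes of lipid synthesis, 12 were called higher at 18°C (38.7%) and 2 at 29°C (6.45%), against the same shares of all genes. Without replicate 2 at 29°C, 1 was called higher at 29°C. Desat1, the delta-9 desaturase that puts a double bond in fatty acids, measured 1803, 1619 and 1576 CPM at 18°C and 1083, 1093 and 1013 CPM at 29°C (log2 fold change 0.65 ± 0.07 (SE), adjusted p = 8e-06). ACC, which starts fatty acid synthesis, gave 0.59 ± 0.07, adjusted p = 9.7e-06, and CG31522, of the elongase family, measured 109, 117 and 123 CPM at 18°C and 62.4, 54.9 and 53.0 CPM at 29°C (log2 fold change 1.04 ± 0.08 (SE), adjusted p = 1e-07). CG4753, annotated as the acyltransferase Agpat4, was higher at 29°C (-1.05 ± 0.13, adjusted p = 2e-05). For storage carbohydrate, AGBE, the glycogen branching enzyme, measured 277, 315 and 262 CPM at 18°C and 129.6, 119 and 117 CPM at 29°C (log2 fold change 1.23 ± 0.11 (SE), adjusted p = 8.6e-07), and UGP (0.59 ± 0.07, adjusted p = 2.2e-05) and GlyP, glycogen phosphorylase (0.52 ± 0.07, adjusted p = 4.7e-05), followed. The amylases Amy-p (-0.97 ± 0.12, adjusted p = 2.5e-05) and Amy-d (-0.61 ± 0.11, adjusted p = 0.00048), which are near-identical copies, and tobi, a target of glucagon-like and insulin signals (-1.005 ± 0.20, adjusted p = 0.0011), were higher at 29°C.

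The respiratory chain as a whole did not follow. Of 70 nuclear subunits of it and of ATP synthase, 16 were called higher at 18°C and 10 at 29°C, near the shares of all genes, with a median of 0.01. The complex I subunit ND-SGDH measured 636, 649 and 616 CPM at 29°C and 415, 414 and 414 CPM at 18°C and was higher at 29°C (log2 fold change -0.61 ± 0.06 (SE), adjusted p = 1.2e-06), while ND-MLRQ of the same list was higher at 18°C (0.33 ± 0.05, adjusted p = 0.00011). Of 21 subunits of the vacuolar proton pump, 7 were called higher at 18°C (33.3%) and 3 at 29°C (14.3%), against 17.3% and 16.1% of all genes. Without replicate 2 at 29°C, 3 and 3 were called.

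The proteasome, which degrades tagged proteins, had 24 of 34 tested subunits called higher at 18°C (70.6%, against 17.3% of all genes). The median was 0.36, and the other 10 did not pass. Prosbeta3 measured 124, 131 and 144 CPM at 18°C and 87.2, 88.95 and 81.5 CPM at 29°C (log2 fold change 0.63 ± 0.09 (SE), adjusted p = 9.3e-05), and Rpn3, of the regulatory cap, 84.3, 82.0 and 102 CPM at 18°C and 66.05, 63.0 and 64.8 CPM at 29°C (log2 fold change 0.47 ± 0.10 (SE), adjusted p = 0.002). The level was highest in replicate 3 at 18°C, which held the top value for 23 of the 24. Without that library 9 subunits were called, and without replicate 3 at 29°C 15. Prosbeta1 (0.39 ± 0.07, adjusted p = 0.00032) and Prosalpha6 (0.47 ± 0.10, adjusted p = 0.0019) kept their calls in every fit that left out a WT library. Of 21 autophagy genes 5 were called higher at 18°C (23.8%) and 3 at 29°C (14.3%), against 17.3% and 16.1% of all genes. Those at 18°C included ref(2)P, the cargo receptor (0.33 ± 0.07, adjusted p = 0.002), and Atg8a (0.22 ± 0.06, adjusted p = 0.0085). Those at 29°C included Atg4a, the protease that prepares Atg8 (-0.84 ± 0.12, adjusted p = 5.8e-05).

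**Figure D3:**
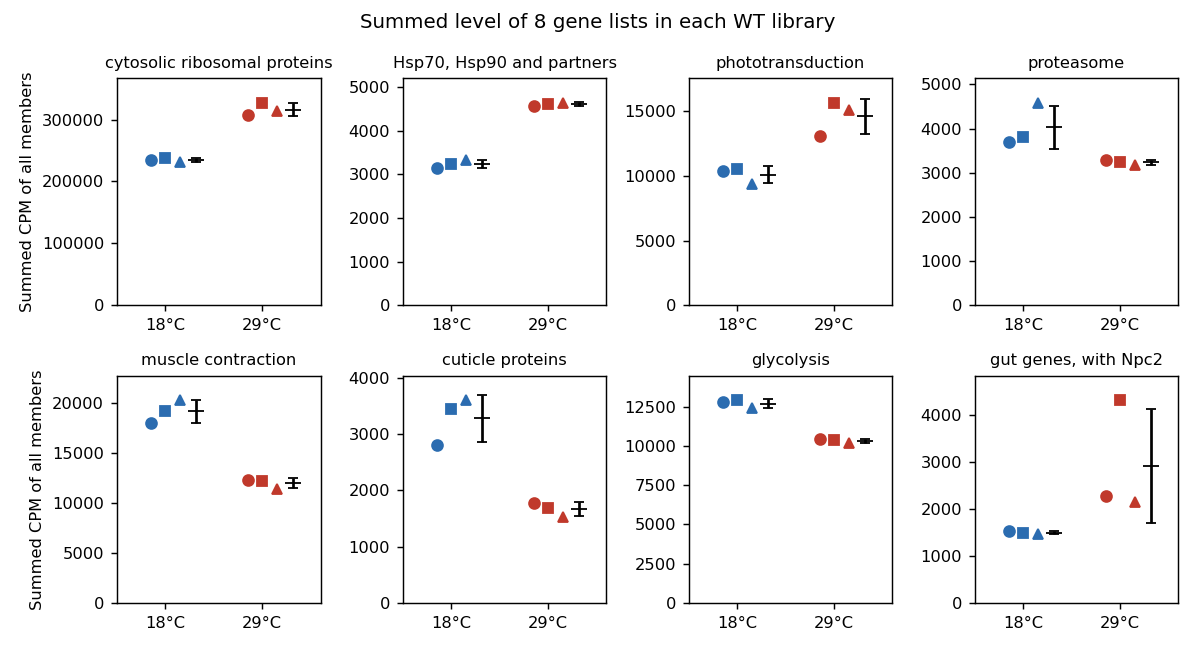
Summed CPM of all members of 8 gene lists in each WT library (circles, unnumbered replicate; squares, replicate 2; triangles, replicate 3), with the mean and SD of the 3 libraries in black. The ribosomal protein sums were 230926 to 237518 CPM at 18°C and 308127 to 327148 CPM at 29°C, while for the digestive list, in which Npc2g alone gave 1741 to 1882 CPM at 29°C, replicate 2 at 29°C stands above the others at 4301 CPM.

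Muscle genes were higher at 18°C for 25 of 33 members (75.8%, against 17.3% of all genes), with a median of 0.65. Only TpnC41C was called higher at 29°C. Act57B, a muscle actin, measured 1624, 1927 and 2065 CPM at 18°C and 876, 842 and 846 CPM at 29°C (log2 fold change 1.13 ± 0.09 (SE), adjusted p = 2.4e-07). SERCA, which pumps calcium back into its store, measured 1247, 1333 and 1228 CPM at 18°C and 734, 751 and 714 CPM at 29°C (log2 fold change 0.79 ± 0.06 (SE), adjusted p = 2.1e-07). Prm, paramyosin, gave 0.93 ± 0.08, adjusted p = 3.6e-07, Mlp60A, a LIM protein of muscle, 0.89 ± 0.07, adjusted p = 1.8e-07, up, troponin T, 0.73 ± 0.07, adjusted p = 1.2e-06, and Mhc, the myosin heavy chain, the smaller 0.28 ± 0.07, adjusted p = 0.0075. TpnC41C, a troponin C, measured 49.8, 54.8 and 43.1 CPM at 29°C and 17.3, 19.2 and 25.05 CPM at 18°C (log2 fold change -1.25 ± 0.16 (SE), adjusted p = 2.2e-05). The summed level of the list was 18010.2 to 20253 CPM at 18°C and 11408 to 12325 CPM at 29°C, and replicate 3 at 18°C held the highest value for 19 of the 25 genes. The amount of muscle taken along with the heads was not given, and its part in the result was not tested.

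Cuticle proteins bind chitin to form the outer skeleton. Of 103 such genes with a row of counts, 51 were tested, with a median of 0.75. Of these, 28 were called higher at 18°C (54.9%) and 3 at 29°C (5.88%), against 17.3% and 16.1% of all genes. Cpr49Ae measured 116, 141 and 134 CPM at 18°C and 65.3, 57.4 and 61.3 CPM at 29°C (log2 fold change 1.09 ± 0.09 (SE), adjusted p = 2.2e-07), and Crys, a structural protein of the corneal lens, 109, 111 and 189.9 CPM at 18°C and 36.8, 35.4 and 30.9 CPM at 29°C (log2 fold change 2.00 ± 0.17 (SE), adjusted p = 4.5e-07). Cpr65Au gave 0.75 ± 0.07, adjusted p = 5.6e-07, and Ccp84Ag 2.57 ± 0.23, adjusted p = 7.9e-07. Cpr49Ac measured 19.5, 6.39 and 45.7 CPM at 18°C and 3.29, 0.137 and 0.241 CPM at 29°C, with the highest value in replicate 3 and the lowest at 18°C in replicate 2 (log2 fold change 4.43 ± 0.99 (SE), adjusted p = 0.0029). The genes higher at 29°C were 3 of the Lcp65A cluster. Lcp65Ag2 measured 29.7, 32.5 and 24.3 CPM at 29°C and 8.34, 12.1 and 8.01 CPM at 18°C (log2 fold change -1.61 ± 0.20 (SE), adjusted p = 2.2e-05), and Lcp65Ac gave -1.09 ± 0.25, adjusted p = 0.0031. Lcp65Ag1, a near copy of Lcp65Ag2, gave -1.16 ± 0.34, adjusted p = 0.016 and missed the threshold in 4 of the 6 fits without a WT library, up to an adjusted p of 0.089 without replicate 2 at 18°C. Of 23 tested genes for chitin enzymes and chitin-binding proteins, 13 were called higher at 18°C and 3 at 29°C. The chitin deacetylases verm and serp, which shape the matrix, measured 59.9, 83.1 and 122 CPM at 18°C and 33.3, 23.9 and 20.7 CPM at 29°C (log2 fold change 1.78 ± 0.24 (SE), adjusted p = 3.2e-05) and 106, 168 and 207 CPM at 18°C and 88.7, 66.3 and 51.8 CPM at 29°C (log2 fold change 1.23 ± 0.22 (SE), adjusted p = 0.0006). Cht5, a moulting chitinase, measured 29.2, 31.6 and 82.1 CPM at 18°C and 14.4, 2.61 and 3.13 CPM at 29°C (log2 fold change 2.91 ± 0.62 (SE), adjusted p = 0.0019). Those higher at 29°C belong to the imaginal disc growth factors, proteins related to chitinases without the enzyme's activity. Idgf2 gave -0.40 ± 0.06, adjusted p = 0.00011, CG5210, annotated as Idgf6, -0.36 ± 0.07, adjusted p = 0.0013, and Idgf5 -0.50 ± 0.11, adjusted p = 0.0026. Replicate 3 at 18°C was highest for 22 of the 28 cuticle genes and for 11 of the 13 chitin genes.

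Larval serum proteins, storage proteins that larvae make in fat body, and the fat body proteins Fbp1, their receptor, and Fbp2 stood among the largest changes. Of the 6 genes, 5 were called higher at 18°C (83.3%, against 17.3% of all genes). Lsp2 measured 1174, 1022 and 966 CPM at 18°C and 203, 209 and 181 CPM at 29°C, 5.34-fold higher at 18°C (log2 fold change 2.42 ± 0.18 (SE), adjusted p = 1.2e-07). Fbp1 measured 33.6, 10.4 and 29.6 CPM at 18°C and 1.41, 0.137 and 0.963 CPM at 29°C (log2 fold change 4.87 ± 0.59 (SE), adjusted p = 1.5e-05), with replicate 2 lowest at 18°C and no overlap. Fbp2 measured 17.8, 6.21 and 17.5 CPM at 18°C and 0.939, 0.137 and 0.482 CPM at 29°C (log2 fold change 4.73 ± 0.58 (SE), adjusted p = 1.5e-05), Lsp1gamma gave 2.23 ± 0.26, adjusted p = 1.1e-05 and Lsp1alpha 3.25 ± 0.53, adjusted p = 0.00024. Lsp1beta went the other way, at 80.6, 94.0 and 77.0 CPM at 29°C and 60.8, 36.2 and 56.5 CPM at 18°C (log2 fold change -0.72 ± 0.15 (SE), adjusted p = 0.0022). The general fat body gene Rfabg, which encodes the main lipoprotein of the blood, rose far less, from 2443 ± 49.0 CPM at 29°C to 2992 ± 102 CPM at 18°C (mean ± SD, n = 3, log2 fold change 0.29 ± 0.06 (SE), adjusted p = 0.0012).

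Yolk protein genes are expressed in the fat body of females. Yp2 measured 41758, 39474 and 37432 CPM at 18°C and 23908, 22121 and 23088 CPM at 29°C (log2 fold change 0.78 ± 0.12 (SE), adjusted p = 9.2e-05). Yp3 measured 29433, 28603 and 27074 CPM at 18°C and 22679.6, 21293 and 20887 CPM at 29°C (log2 fold change 0.39 ± 0.11 (SE), adjusted p = 0.015) and missed the threshold without the unnumbered library (adjusted p = 0.052) at 18°C or replicate 3 at 29°C (adjusted p = 0.054). Yp1 measured 33219.8, 33807 and 31741 CPM at 18°C and 36649, 37512 and 35467 CPM at 29°C and did not pass (log2 fold change -0.15 ± 0.11 (SE), adjusted p = 0.33), so that the 3 related genes did not move together. fit, a female-enriched gene of head fat body that follows feeding, measured 1437, 1387 and 1051 CPM at 18°C and 427, 421 and 369.7 CPM at 29°C (log2 fold change 1.67 ± 0.13 (SE), adjusted p = 2.3e-07). to, a clock- and starvation-regulated gene of male-enriched expression, measured 259.8, 255.4 and 231 CPM at 18°C and 70.1, 64.4 and 55.5 CPM at 29°C (log2 fold change 1.97 ± 0.15 (SE), adjusted p = 1.1e-07). Of the non-coding RNAs that mark the male X chromosome for dosage compensation, roX2 measured 26.3, 28.4 and 31.2 CPM at 29°C and 7.02, 3.29 and 4.37 CPM at 18°C (log2 fold change -2.58 ± 0.22 (SE), adjusted p = 3.5e-07), while roX1 measured 614, 397 and 467 CPM at 18°C and 422, 462 and 541 CPM at 29°C and did not pass (log2 fold change 0.05 ± 0.20 (SE), adjusted p = 0.87). The dosage compensation proteins msl-2 (-0.73 ± 0.17, adjusted p = 0.0045) and mle (-0.59 ± 0.14, adjusted p = 0.0042) were higher at 29°C. The share of males and females in each library is not given, and genes of both sexes were present in every WT library at either temperature.

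Turandot genes encode small humoral proteins made under stress. Of the 4 tested, all were called higher at 18°C, against 17.3% of all genes, with a median of 2.30. TotA measured 536, 548 and 436 CPM at 18°C and 105.02, 109 and 126 CPM at 29°C, 4.46-fold higher at 18°C (log2 fold change 2.16 ± 0.30 (SE), adjusted p = 5.2e-05). TotC measured 472, 444 and 363 CPM at 18°C and 64.2, 61.1 and 66.3 CPM at 29°C, 6.67-fold higher (log2 fold change 2.74 ± 0.40 (SE), adjusted p = 8.8e-05), and TotM 58.6, 45.3 and 60.6 CPM at 18°C and 12.1, 8.79 and 9.51 CPM at 29°C (log2 fold change 2.44 ± 0.39 (SE), adjusted p = 0.0002). TotX moved little (0.33 ± 0.11, adjusted p = 0.026) and missed the threshold without replicate 2 at 18°C (adjusted p = 0.11), the unnumbered library at 29°C (adjusted p = 0.1) or replicate 3 there (adjusted p = 0.061). The groups of the first 3 were wide apart. TotA and TotC are close relatives, so that their reads may be shared. Of 5 tested genes with a known cold or cryoprotective role, smp-30 (0.83 ± 0.11, adjusted p = 2.7e-05) and Ddc (0.77 ± 0.12, adjusted p = 0.00011) were called higher at 18°C, and Gs1 (0.17), CG3823 (0.33) and Pepck (-0.12) did not pass.

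Of 35 peptidoglycan recognition proteins and members of the Toll and Imd pathways, which sense bacteria and fungi, 11 were called higher at 18°C and 3 at 29°C. These were 31.4% and 8.57%, against 17.3% and 16.1% of all genes. The NF-kappaB factors Dif (0.48 ± 0.09, adjusted p = 0.00051) and Rel (0.43 ± 0.09, adjusted p = 0.0017) and the receptors PGRP-SA, at 55.3, 56.6 and 54.2 CPM at 18°C and 39.1, 36.4 and 32.02 CPM at 29°C (log2 fold change 0.63 ± 0.12 (SE), adjusted p = 0.00067), and PGRP-SD (0.64 ± 0.12, adjusted p = 0.00053) were higher at 18°C. GNBP-like3 measured 238, 209 and 234 CPM at 29°C and 79.6, 69.9 and 80.5 CPM at 18°C and was higher at 29°C (log2 fold change -1.56 ± 0.09 (SE), adjusted p = 5.4e-09). Of 26 antimicrobial and immune-induced peptides, 8 were called higher at 18°C (30.8%) and 6 at 29°C (23.1%), the latter 3 without replicate 2 at 29°C. The drosomycin relatives Drsl4, at 202, 194 and 189 CPM at 18°C and 59.8, 63.7 and 52.6 CPM at 29°C (log2 fold change 1.73 ± 0.11 (SE), adjusted p = 1.2e-08), Drsl3 (1.51 ± 0.20, adjusted p = 3.3e-05) and Drsl5 (0.75 ± 0.12, adjusted p = 0.00025) were higher at 18°C. Mtk, the antifungal metchnikowin, measured 463, 455 and 185 CPM at 29°C and 98.1, 132 and 87.2 CPM at 18°C (log2 fold change -1.80 ± 0.55 (SE), adjusted p = 0.019), and DptB, a diptericin against Gram-negative bacteria, 164, 201 and 109.8 CPM at 29°C and 37.1, 37.2 and 18.8 CPM at 18°C (log2 fold change -2.36 ± 0.78 (SE), adjusted p = 0.029). Both missed the threshold without the unnumbered library at 29°C (adjusted p = 0.065 for Mtk and 0.06 for DptB) and in further fits without a WT library. Of 16 genes of blood cells and thioester proteins, Tep2 (0.71 ± 0.09, adjusted p = 1.8e-05) and the type IV collagens vkg (0.50 ± 0.07, adjusted p = 5.1e-05) and Cg25C (0.46 ± 0.07, adjusted p = 0.00016) were higher at 18°C, and Hml, hemolectin of the blood cells, at 126, 128 and 110.2 CPM at 29°C and 73.3, 80.7 and 74.7 CPM at 18°C, was higher at 29°C (log2 fold change -0.67 ± 0.08 (SE), adjusted p = 8.3e-06).

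The circadian clock of the fly runs on a loop in which Clk and cyc switch on per, tim, vri and cwo, whose products act back on them. Of 27 clock genes, 6 were called higher at 18°C and 3 at 29°C, 9 in all, near the 33.4% of all tested genes. vri measured 89.7, 83.3 and 79.5 CPM at 18°C and 23.5, 23.5 and 18.8 CPM at 29°C, 3.85-fold higher at 18°C (log2 fold change 1.94 ± 0.12 (SE), adjusted p = 1.1e-08). per measured 19.3, 19.5 and 14.6 CPM at 18°C and 5.32, 6.59 and 6.02 CPM at 29°C (log2 fold change 1.56 ± 0.19 (SE), adjusted p = 1.2e-05), and tim 55.9, 50.03 and 60.1 CPM at 18°C and 26.5, 20.2 and 28.5 CPM at 29°C (log2 fold change 1.14 ± 0.13 (SE), adjusted p = 8.4e-06). cwo (0.58 ± 0.10, adjusted p = 0.00042) and Pdfr, receptor of the clock neuropeptide (0.64 ± 0.10, adjusted p = 0.00021), were also higher at 18°C. Clk measured 5.95, 9.06 and 7.1 CPM at 29°C and 3.73, 3.83 and 6.12 CPM at 18°C, higher at 29°C (log2 fold change -0.66 ± 0.22 (SE), adjusted p = 0.03), but missed the threshold in 4 of the 6 fits without a WT library, at an adjusted p of 0.16 without replicate 2 at 29°C. The neuropeptide gene Pdf (-0.26 ± 0.09, adjusted p = 0.036) missed it in 5 of the 6, up to 0.12 without replicate 3 at 29°C, and tws, a phosphatase subunit (-0.26 ± 0.09, adjusted p = 0.046), in all 6, up to 0.11 without replicate 2 at 18°C. Without replicate 2 at 29°C 1 clock gene was called higher at 29°C. Messages of per, tim, vri and Clk cycle over the day, and the hour of harvest is not given, so a difference in level and a difference in phase cannot be told apart here.

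**Figure D4:**
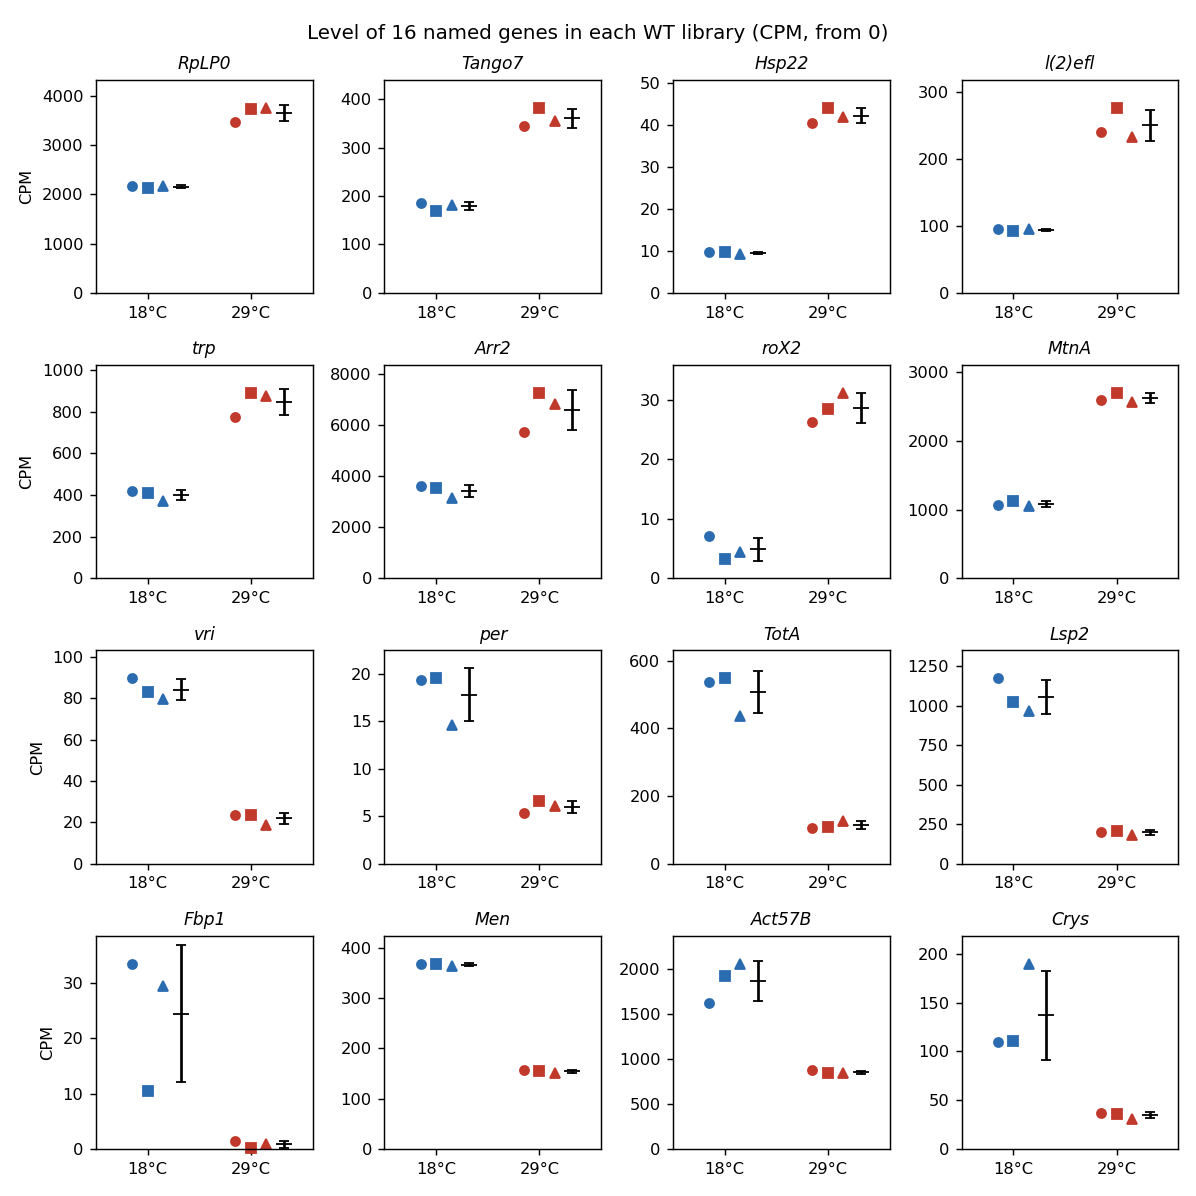
CPM of 16 named genes in each WT library (circles, unnumbered replicate; squares, replicate 2; triangles, replicate 3; blue, 18°C; red, 29°C), each panel from 0, with the mean and SD of the 3 libraries in black. In every panel the 2 groups of 3 libraries lie apart, and the spread at 18°C is widest for Fbp1, whose replicate 2 is low, and for Crys, whose replicate 3 is high.

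Enzymes of detoxification were called in both directions. Of 67 cytochrome P450 genes, 28 were called higher at 18°C and 8 at 29°C, with a median of 0.30. These were 41.8% and 11.9%, against 17.3% and 16.1% of all genes. Cyp6a2, known for insecticide resistance, measured 281, 276 and 276 CPM at 18°C and 105.3, 93.5 and 111 CPM at 29°C (log2 fold change 1.43 ± 0.08 (SE), adjusted p = 6.9e-09), and Cyp6d5 761, 697 and 737 CPM at 18°C and 316, 316 and 279 CPM at 29°C (log2 fold change 1.27 ± 0.07 (SE), adjusted p = 4.1e-09). Cyp4d2, at 87.8, 96.8 and 82.7 CPM at 29°C and 52.9, 48.9 and 53.3 CPM at 18°C, was among those higher at 29°C (log2 fold change -0.78 ± 0.09 (SE), adjusted p = 5.1e-06). Of 30 glutathione transferases, 9 were called higher at 18°C (30%) and 6 at 29°C (20%), against 17.3% and 16.1% of all genes. GstE3 (1.04 ± 0.07, adjusted p = 7.6e-08) and GstE14, also known as noppera-bo and needed to make ecdysone (1.17 ± 0.12, adjusted p = 4.1e-06), were higher at 18°C, and GstD9 (-1.19 ± 0.09, adjusted p = 8.9e-08) and GstZ2 (-0.89 ± 0.09, adjusted p = 1.7e-06) at 29°C. Of 28 antioxidant and metal-binding genes, 9 were called higher at 18°C (32.1%) and 5 at 29°C (17.9%), against the same shares of all genes. The peroxiredoxins Prx2540-2, at 102, 115 and 127 CPM at 18°C and 24.4, 22.5 and 23.1 CPM at 29°C (log2 fold change 2.30 ± 0.13 (SE), adjusted p = 8.3e-09), and Prx2540-1 (1.81 ± 0.12, adjusted p = 4.7e-08), close copies, were higher at 18°C. MtnA, a metallothionein that binds copper, measured 2593, 2698 and 2559 CPM at 29°C and 1059, 1131 and 1046 CPM at 18°C, 2.43-fold higher at 29°C (log2 fold change -1.28 ± 0.07 (SE), adjusted p = 4.1e-09). Of 18 UDP-glycosyltransferases, 6 were called higher at 18°C (33.3%) and 1 at 29°C (5.56%), which lost its call without replicate 2 at 29°C.

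Among hormone genes, 8 of 23 ecdysone genes were called higher at 18°C (34.8%) and 1 at 29°C (4.35%), against 17.3% and 16.1% of all genes. phm, a P450 of ecdysone synthesis, measured 7.68, 8.22 and 8.88 CPM at 18°C and 1.41, 1.65 and 0.963 CPM at 29°C (log2 fold change 2.63 ± 0.34 (SE), adjusted p = 2.5e-05). Oatp74D, the importer of ecdysone into cells, gave 0.84 ± 0.15, adjusted p = 0.00056, and Eip93F, a transcription factor induced by ecdysone, 0.55 ± 0.09, adjusted p = 0.00026, whereas Eip71CD, a methionine sulfoxide reductase, was higher at 29°C (-0.67 ± 0.13, adjusted p = 0.0012). Of 17 genes of juvenile hormone, Jheh1, an epoxide hydrolase that breaks it down, measured 144, 136 and 137 CPM at 18°C and 64.6, 65.9 and 68.3 CPM at 29°C (log2 fold change 1.07 ± 0.08 (SE), adjusted p = 6e-08), gce, one of its receptors, gave 0.46 ± 0.07, adjusted p = 0.0002, and Jheh2, next in the same family, went the other way (-0.33 ± 0.06, adjusted p = 0.00093). In insulin, TOR and adipokinetic hormone signalling, 3 of 37 genes were called higher at 18°C and 7 at 29°C, the latter 4 without replicate 2 at 29°C, against 17.3% and 16.1% of all genes. AkhR, the receptor of adipokinetic hormone, measured 41.0, 45.1 and 44.6 CPM at 18°C and 23.5, 21.4 and 30.3 CPM at 29°C (log2 fold change 0.79 ± 0.12 (SE), adjusted p = 0.00012), and Thor, the translation repressor 4E-BP, gave 0.29 ± 0.07, adjusted p = 0.0039. The insulin-like peptide Ilp3 measured 23.8, 20.04 and 20.5 CPM at 29°C and 15.1, 11.9 and 12.7 CPM at 18°C (log2 fold change -0.70 ± 0.15 (SE), adjusted p = 0.0021), and Rheb, activator of TOR (-0.35 ± 0.08, adjusted p = 0.0031), and Myc (-0.49 ± 0.12, adjusted p = 0.0063) were also higher at 29°C.

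Odorant binding proteins carry odours in the lymph of sensory hairs, and some occur in fat body and glia. Of 36 tested, 12 were called higher at 18°C (33.3%) and 6 at 29°C (16.7%), against 17.3% and 16.1% of all genes. Obp99a measured 650.3, 645 and 501 CPM at 18°C and 165, 148 and 134 CPM at 29°C (log2 fold change 2.01 ± 0.25 (SE), adjusted p = 1.7e-05), and Obp44a 3324, 3170.4 and 3713 CPM at 18°C and 2540.1, 2446 and 2505 CPM at 29°C (log2 fold change 0.45 ± 0.06 (SE), adjusted p = 2.1e-05). Obp56e measured 2252, 2504 and 2179 CPM at 29°C and 1227, 1348 and 1211 CPM at 18°C (log2 fold change -0.87 ± 0.12 (SE), adjusted p = 5.4e-05), and Obp19b and Obp56a gave -1.46 ± 0.15, adjusted p = 2.1e-06 and -0.92 ± 0.10, adjusted p = 3.1e-06. Of 142 odorant, gustatory and ionotropic receptors in the table only 13 passed the filter on low counts. The antennal ionotropic receptor Ir76a, with at most 3 counts in any library at 18°C, was called higher at 29°C (-2.25 ± 0.54, adjusted p = 0.0043), and its mean at 29°C was at least 2.71-fold the floor of 3 counts per library. Of 6 tested thermosensory receptors, wtrw, a TRP channel of humidity sensing, measured 88.9, 103 and 98.6 CPM at 18°C and 79.0, 75.5 and 80.5 CPM at 29°C (log2 fold change 0.31 ± 0.07 (SE), adjusted p = 0.0032). pain was called higher at 18°C (0.46 ± 0.17, adjusted p = 0.044) but missed the threshold in 5 of the 6 fits without a WT library, up to an adjusted p of 0.16 without replicate 3 at 18°C. TrpA1, the warmth sensor (0.08), pyx (-0.80), Gr28b (0.74) and Ir25a (-0.40) did not pass, at levels under 10 CPM.

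Of 18 tested genes of DNA replication and mitosis, 4 were called higher at 18°C, 22.2% against 17.3% of all genes. They were the replication clamp PCNA, at 17.1, 13.9 and 16.2 CPM at 18°C and 6.42, 5.9 and 6.02 CPM at 29°C (log2 fold change 1.36 ± 0.17 (SE), adjusted p = 1.7e-05), the helicase subunit Mcm5 (1.61 ± 0.28, adjusted p = 0.00042), and RnrL (1.02 ± 0.22, adjusted p = 0.0021) and RnrS (1.01 ± 0.27, adjusted p = 0.0083), the subunits of the enzyme that makes DNA precursors. The mitotic kinase aurA, at 2.97, 1.51 and 2.41 CPM at 29°C and 0.439, 0.183 and 0.728 CPM at 18°C, was higher at 29°C (log2 fold change -2.24 ± 0.51 (SE), adjusted p = 0.0033). Most histone messages have no poly(A) tail, and 4 histone genes were tested. His4r, a histone H4 gene, measured 1111, 1098 and 1075 CPM at 29°C and 748, 701 and 708 CPM at 18°C (log2 fold change -0.61 ± 0.05 (SE), adjusted p = 3.2e-07). Of 230 tested genes with a CR name, mostly long non-coding RNAs, 31 were called higher at 18°C and 40 at 29°C, near or below the shares of all genes. CR44298 measured 40.4, 38.3 and 41.8 CPM at 18°C and 2.66, 4.39 and 2.77 CPM at 29°C, 12.2-fold higher at 18°C (log2 fold change 3.61 ± 0.23 (SE), adjusted p = 1.9e-08), and CR44030 52.9, 50.5 and 59.8 CPM at 29°C and 10.1, 11.5 and 14.4 CPM at 18°C (log2 fold change -2.16 ± 0.13 (SE), adjusted p = 8.7e-09). CR44030 is annotated as antisense to another gene, and the sources do not say whether the counting used strand, so its reads cannot be told from those of its partner with confidence.

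The 10 largest rises at 18°C, among called genes without overlap that kept their call without replicate 2 at 29°C, were CG14573, Fbp1, CG14569, Fbp2, Cpr49Ac, CG14565, Cpr56F, CG13639, ppk22 and CG14572. CG14565 measured 20.8, 13.1 and 36.0 CPM at 18°C and 3.29, 0.137 and 0.241 CPM at 29°C (log2 fold change 4.38 ± 0.73 (SE), adjusted p = 0.00025), and CG14572 21.3, 7.12 and 36.7 CPM at 18°C and 3.29, 0.275 and 0.482 CPM at 29°C (log2 fold change 4.11 ± 0.79 (SE), adjusted p = 0.00088). CG13639 measured 18.2, 10.2 and 41.1 CPM at 18°C and 2.35, 0.961 and 0.602 CPM at 29°C (log2 fold change 4.23 ± 0.74 (SE), adjusted p = 0.00042), and ppk22, an epithelial sodium channel of the pickpocket family, 12.9, 4.38 and 20.5 CPM at 18°C and 1.1, 1.1 and 0 CPM at 29°C (log2 fold change 4.17 ± 0.83 (SE), adjusted p = 0.0012). CG14573 had at most 1 count in any library at 29°C and stood at 5.05, 2.19 and 9.46 CPM at 18°C, at least 13.4-fold the floor of 3 counts per library. Cpr56F, a cuticle protein with at most 2 counts at 29°C, was likewise at least 9.31-fold higher at 18°C. In all 10 genes replicate 2 was the lowest of the libraries at 18°C, and in 8 replicate 3 was the highest. Several of the genes are close neighbours. In the gene order of RefSeq (Release 6 plus ISO1 MT) CG14569, CG14573, CG14572 and CG14565 fall within a run of 8 genes on chromosome arm 3L, a run looked up after their values were seen. The run was bounded by genes of these 4, whose calls were known in advance. The other tested genes within it, CG14566 (3.54 ± 0.59, adjusted p = 0.00028) and CG14567 (0.81 ± 0.20, adjusted p = 0.0053), were also called higher at 18°C. The same gene order places ppk22 and CG13639 side by side on chromosome arm 3R, and whether they share reads was not tested.

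The 10 largest rises at 29°C by the same rule were CG18673, LysS, Mst36Fb, CG43064, CG13059, Osi8, CR45144, PGRP-SC2, Cp18 and CG14662. CG18673, annotated as the carbonic anhydrase CAH5, had a count of 0 in every library at 18°C and measured 9.55, 3.57 and 4.21 CPM at 29°C, at least 10.5-fold the floor of 3 counts per library (log2 fold change -8.32 ± 1.04 (SE), adjusted p = 3.9e-05, where the fitted fold depends on the prior count). CG13059 measured 17.5, 21.4 and 15.8 CPM at 29°C and 0.219, 0.913 and 2.33 CPM at 18°C (log2 fold change -3.81 ± 0.32 (SE), adjusted p = 3.2e-07), and CG43064 5.63, 6.45 and 7.58 CPM at 29°C and 0.219, 0.73 and 0.291 CPM at 18°C (log2 fold change -3.93 ± 0.50 (SE), adjusted p = 2.4e-05). For both the 3 libraries at 29°C agreed closely. LysS, a lysozyme, measured 5.32, 83.5 and 3.13 CPM at 29°C and 0, 0.365 and 0.874 CPM at 18°C, with most of its reads in replicate 2, and PGRP-SC2, an enzyme that cuts bacterial cell wall, 5.95, 16.6 and 2.05 CPM at 29°C and 0.439, 0.548 and 0.874 CPM at 18°C. The log2 fold change of LysS was -5.97 with replicate 2 at 29°C and -3.10 without it, and that of PGRP-SC2 -3.62 and -2.56. Cp18, an eggshell protein of the ovary, measured 5.48, 6.31 and 0.602 CPM at 29°C and 0, 0.548 and 0.437 CPM at 18°C, so that its rise rests on the unnumbered library and replicate 2. Osi8 (-3.77 ± 0.66, adjusted p = 0.00042), the antisense RNA CR45144, with the same limit of strand as CR44030 (-3.69 ± 0.83, adjusted p = 0.0028), the male-specific transcript Mst36Fb (-4.28 ± 0.94, adjusted p = 0.0023) and CG14662 (-3.42 ± 0.71, adjusted p = 0.0016) had at most 3 counts in any library at 18°C, and their means at 29°C were at least 4.75, 4.61, 2.67 and 3.72 times the floor of 3 counts per library.

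The smallest adjusted p-values belonged to genes with log2 changes beyond 1 and tight replicates. CG13315 measured 2052, 1945 and 2066 CPM at 18°C and 699, 723 and 758 CPM at 29°C (log2 fold change 1.48 ± 0.06 (SE), adjusted p = 1.8e-10). CG32425 measured 287, 243 and 267 CPM at 18°C and 62.9, 68.6 and 64.2 CPM at 29°C (log2 fold change 2.03 ± 0.09 (SE), adjusted p = 9.4e-10), CG1552 gave 1.39 ± 0.07, adjusted p = 3.6e-09, and CG11459, annotated as the cathepsin L relative CtsL3, 55.3, 53.5 and 43.0 CPM at 18°C and 6.1, 5.35 and 7.58 CPM at 29°C (log2 fold change 2.98 ± 0.14 (SE), adjusted p = 9.2e-10). At 29°C, CG42446 measured 145, 145 and 142 CPM at 29°C and 42.3, 42.4 and 41.6 CPM at 18°C (log2 fold change -1.77 ± 0.07 (SE), adjusted p = 1.8e-10), CG42369 117, 103 and 103 CPM at 29°C and 19.97, 18.1 and 21.4 CPM at 18°C (log2 fold change -2.44 ± 0.10 (SE), adjusted p = 5.5e-10) and CG7607 175, 186 and 184 CPM at 29°C and 59.2, 65.9 and 62.0 CPM at 18°C (log2 fold change -1.54 ± 0.07 (SE), adjusted p = 8.2e-10), followed by CG17931 (-1.52 ± 0.07, adjusted p = 8.2e-10) and CG34291 (-2.25 ± 0.12, adjusted p = 4.1e-09). No role is given here for the genes known only by CG numbers.

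Replicate 2 at 29°C held reads of many genes near absent from the other WT libraries. The 159 genes seen mainly there held 4154 counts in all, and 5 of them passed the filter on low counts. Of the 159, 7 belong to the digestive list, 4 to that of the accessory gland, 6 to that of the testis and 2 to that of the Malpighian tubule, none to that of the ovary, and the others to none of these lists. The 5 with most counts were LManV, an alpha-mannosidase (209 counts there and at most 1 in any other WT library), CG32198 (172 and 0), CG43680 (138 and at most 1), CG4363 (128 and 0) and CG30031, a trypsin (93 and at most 1). The trypsin gammaTry had the same count as CG30031 in every WT library and so tied with it. Whether the 2 genes share reads was not tested. A further pattern was found in abundant genes. 54 genes, 50 of them beyond the first set, had at least 100 counts there and at least 10 times the count of every other WT library, 42514 counts or 0.538% of that library. Of the 54, 14 are in the digestive list and 4 in that of the accessory gland. They included CG18628 (6342 counts against at most 72 elsewhere), the lysozymes LysD (3324 against at most 35) and LysB (1735 against at most 45) and the trypsin betaTry (1730 against at most 35). These 4 were picked after their values were seen, and the lysozymes are near-identical copies.

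**Figure D5:**
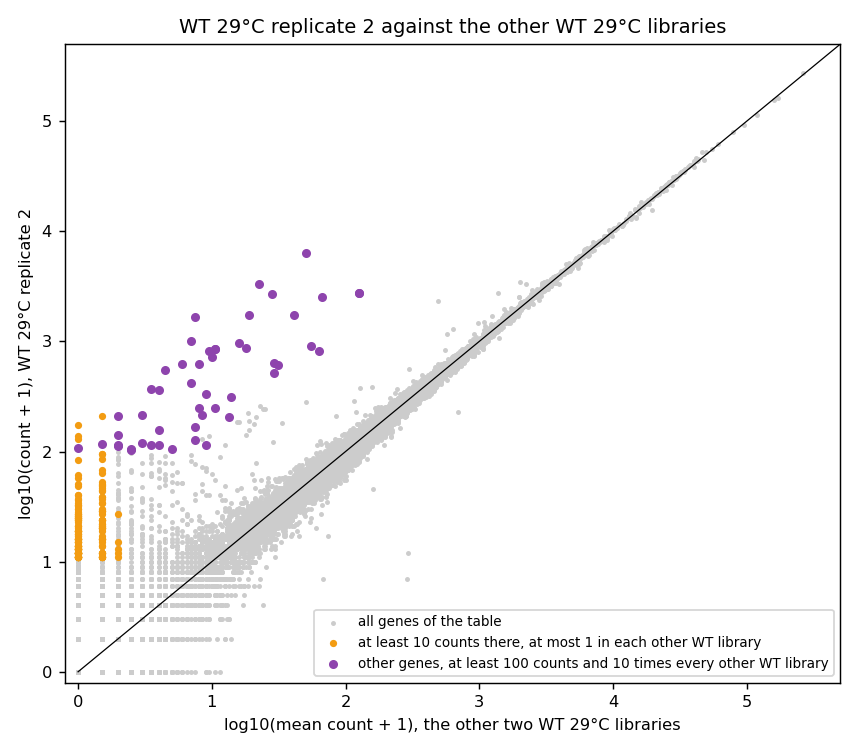
Log10(count + 1) of every gene in replicate 2 of WT at 29°C against log10(mean count + 1) in the other WT libraries at 29°C, with the diagonal as a line. The 159 genes seen mainly in replicate 2 are orange and the 50 further genes at least 10 times above every other WT library are purple, all far above the diagonal.

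The calls most tied to that library were those of gut and male reproductive genes. The digestive list holds gut proteases, lysozymes and sterol-binding Npc proteins. Of its 18 tested genes, 11 were called higher at 29°C with the library (61.1%) and 3 without it, while DESeq2 called 2 with it. The shares of all genes were 16.1% with the library and 12.9% without it. The median log2 fold change of the list went from -5.25 to -0.99. LysB measured 7.04, 238 and 4.21 CPM at 29°C and 0.658, 0.183 and 1.6 CPM at 18°C (log2 fold change -6.53 ± 1.65 (SE), adjusted p = 0.0063), and without the library its adjusted p was 0.1. Npc2g, one of the sterol-binding proteins, rested on no single library at 1861, 1882 and 1741 CPM at 29°C and 930.0, 876 and 879.6 CPM at 18°C (log2 fold change -1.03 ± 0.06 (SE), adjusted p = 6.6e-09), and its relative Npc2h was higher at 18°C at 441, 437 and 408 CPM at 18°C and 224, 218 and 224 CPM at 29°C (log2 fold change 0.95 ± 0.07 (SE), adjusted p = 1.3e-07). Of 13 tested genes of the male accessory gland and ejaculatory tract, 9 were called higher at 29°C with the library (69.2%) and 1 without it. That one was Est-6, an esterase also found in the antenna, at 561, 552 and 531 CPM at 29°C and 231, 218 and 192 CPM at 18°C (log2 fold change -1.36 ± 0.08 (SE), adjusted p = 1.1e-08). Mst57Db measured 13.6, 124 and 2.65 CPM at 29°C and 2.63, 2.74 and 2.62 CPM at 18°C, and its adjusted p went from 0.0098 to 0.17 without the library. The summed level of the testis list was 117 CPM there and 13.2 and 16.3 CPM in the other libraries at 29°C, and at 18°C 12.1 to 15.9 CPM.

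The same contrast in the Adar hypomorph shares no library with that in WT. The difference of the responses passed an adjusted p of 0.05 for 222 of the 9553 genes (2.32%). Among the lists higher at 18°C in WT, it passed for 6 of 6 larval serum protein genes, 6 of 16 of glycolysis, 8 of 33 of muscle and 4 of 51 of cuticle. In other lists with most calls at 18°C it passed for 5 of 31 genes of lipid synthesis, 4 of 67 P450 genes, 2 of 23 chitin genes, 1 of 21 of fatty acid oxidation and 1 of 32 of glia. By edgeR it passed for 0 of 34 proteasome genes, and for 1 at an unadjusted p under 0.05. DESeq2 was not run for this difference. It passed for Yp1, Yp2 and Yp3 as well, each with a more positive log2 fold change in WT than in the hypomorph. The values in WT and in the hypomorph were -0.15 and -1.22 for Yp1, 0.78 and -0.49 for Yp2 and 0.39 and -0.68 for Yp3. The median log2 fold change in the hypomorph was -1.78 for larval serum proteins, against 2.83 in WT, 0.29 for muscle, against 0.65, and -0.52 for ribosomal proteins, against -0.44. Where no difference was called, this does not show that the strains respond alike.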

How the data were processed

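The study sequenced the 3′ ends of polyadenylated RNA from fly heads. The authors aligned reads with TopHat to dm3, counted them per gene with ESAT and deposited raw counts, with no normalization. Whether the counting used strand, and any use of molecular identifiers, is not given in the sources used here. The table also holds 4 columns of other samples, which were not used. Counts of the 12 libraries in 4 groups were fitted together with edgeR 4.0.16 in R 4.3.3 (TMM scaling, filterByExpr with a minimum count of 10, quasi-likelihood F test, Benjamini-Hochberg adjustment), and 9553 of 15423 genes were tested. The study used DESeq, and DESeq2 1.42.0 served as an alternative. CPM are counts scaled to the TMM-adjusted library size, and an SE is the size of the log2 fold change over the root of F. In counts simulated for the temperature effect in WT over 9553 genes, 96.9% of 98 genes changed by 1.5 (log2) and 45.1% of 102 changed by 0.6 were recovered. Of the unchanged genes, 9 were called. The changed genes were drawn only from those above a minimum mean CPM, so recovery of low genes was not measured. 1 column of each group has no replicate number and is called unnumbered. No 2 replicates of a WT group agreed within sampling noise (chi-square per degree of freedom 3.71 or more), and the hypomorph groups were not checked.

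Gene lists and members were chosen with earlier results of these data known. Named were the 10 largest changes in each direction without overlap that kept their call without replicate 2 of WT at 29°C, the 5 with the smallest adjusted p in each direction, in each list described up to 4 called members in each direction and the members of short lists that did not pass, the 5 genes with most counts among those seen mainly in that replicate, and Adar. Markers of cell types and of sex from a fixed list were named too, except brp (neuron) and Act88F (muscle), which are not described. Ald, Pgi, Pglym78, CG43343, CG14207, RpL41, RpL7-like, RpLP0-like, RpS5b, TrpA1, pyx, Gr28b, Ir25a, Lsp1alpha, cwo, CG14566, CG14567, CG18628, LysD, betaTry and gammaTry fall outside these rules and were chosen after their values were seen. Alternatives were another tool, other size factors, other filters, WT libraries alone, a replicate block and leaving out each WT library. Gene order was read from RefSeq (15327 symbols matched). A floor of 3 counts per library stood in for groups near 0.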

Additional observations from a re-analysis of the deposited data

Results flagged for a closer look

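For 41 of the genes named above the log2 fold change (18°C over 29°C) differed between WT and the Adar hypomorph by edgeR's test of the difference, at an adjusted p under 0.05. Values below are WT minus hypomorph on the log2 scale, so that a positive value is a response shifted towards 18°C in WT. The storage proteins of fat body differed by 6.50 for Fbp1, 6.03 for Fbp2, 5.81 for Lsp1alpha, 5.04 for Lsp2, 1.86 for Lsp1gamma and 1.21 for Lsp1beta. The log2 fold changes in WT and in the hypomorph were 2.42 and -2.63 for Lsp2, 4.87 and -1.64 for Fbp1 and 4.73 and -1.29 for Fbp2. The SE of the difference was 0.27 for Lsp2, 0.92 for Fbp1 and 0.87 for Fbp2. No test of the temperatures within the hypomorph is given here. Among genes of female-enriched or yolk expression the difference was 1.07 for Yp1, 1.26 for Yp2, 1.07 for Yp3 and 1.57 for fit, and for the lipoprotein gene Rfabg it was 0.42. Sex composition and nutrition of the strains were not given, and their part in these differences was not tested.

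In sugar and fat metabolism the difference was 0.68 for Men, 0.61 for Pgi, 0.50 for Gpdh, 0.44 for Hex-C, 0.38 for Ald, 0.31 for Gapdh1, 0.52 for UGP, 0.52 for GlyP, 0.41 for ACC, 0.89 for CG4753 and 1.79 for tobi. The near-identical amylases Amy-p (-1.05) and Amy-d (-1.03) differed in the other direction. In muscle it was 0.63 for Act57B, 0.58 for Prm and 0.55 for up. Among single genes of stress and immunity lists, most of whose members had no called difference, it was -0.87 for Hsp22, -0.58 for MtnA, -0.79 for TotX, -0.74 for Drsl4, -0.71 for Drsl5 and -0.90 for PGRP-SD. The others were 0.82 for smp-30, 0.79 for Nplp3, 0.55 for Pal1, 0.48 for Tudor-SN, 0.49 for Cyp6a2, -2.24 for Ccp84Ag, -0.45 for CG13315 and 0.94 for CG34291.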

How the results depend on the processing

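No called gene among those named changed direction under an alternative that gave it a value. 8 that did not pass did so, in 23 fits, none of them past the threshold. Syt1 gave 0.0034 with DESeq2 and 0.0038 with its size factors. In the numbered libraries RpS5b gave -0.22 with the replicate block and -0.24 without it, TrpA1 -0.55 and -0.54, and roX1 -0.21 in both. Over the 6 fits without a WT library, log2 fold changes ran from -0.081 to 0.030 for Adar, -0.30 to 0.19 for CG43343, -8.49 to 2.10 for CG43680, -0.23 to 0.012 for Pepck, -0.33 to 0.31 for RpS5b, -0.027 to 0.013 for Syt1, -0.32 to 0.72 for TrpA1 and -0.14 to 0.19 for roX1. Of 243 named genes called, 23 lost the call in at least 1 of up to 13 alternatives and 9 in more than 3. Leaving out each WT library in turn gave 1357 to 1535 genes called higher at 18°C and 1246 to 1324 higher at 29°C, against 1651 and 1539. By the criterion of the study it gave 333 to 426 at 18°C and 266 to 376 at 29°C. DESeq2 called 1606 and 1297 genes. Requiring at least 10 counts in every library, which tests fewer genes, left 226 genes at 18°C and 116 at 29°C by the criterion of the study, 18 cuticle genes and 2 larval serum protein genes called higher at 18°C, while keeping all genes with at least 1 count gave 672 at 29°C by that criterion. Proteasome genes called higher at 18°C ranged from 9 to 23 with a WT library left out, and the cause was not tested. With at least 20 counts in replicate 2 of WT at 29°C and 0 in the other WT libraries, 25 genes were found in place of 159. Without that replicate and without the hypomorph libraries, 1342 and 1133 genes were called. Replicate numbers did not pair the libraries (correlations of deviations 0.078 and -0.041). In the 8 numbered libraries 2414 genes were called with the replicate block and 2488 without it, 2314 of them in both. With 3 libraries per group and a biological coefficient of variation of 12.9%, small changes of low genes may have been missed at this depth.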
